A study of Mus musculus with 6 samples.

Results

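A set of protein-coding gene promoters carried an ATAC-seq peak in every library of mice in high-altitude de-acclimatization (HADA) and in no control library. To find them, the peaks of 6 lists on chromosomes 1 to 19 were merged where they shared 1 bp. A merged region was kept when it held a peak in 3 of 3 HADA and 0 of 3 control lists and when at least 1 peak summit lay within 1 kb of a protein-coding transcript start. Of 60298 merged regions, 438 met this rule, which was 3.35% of the 13070 regions with a summit that close to such a start. Without control 1 the number was 810, and without control 2 or 3 it was 510 or 469. They held starts of 436 genes. The opposite pattern, a peak in all control lists and no HADA list, was found at 65 promoter regions, or 0.497%. The HADA lists were longer, with 42500 to 44102 peaks on these chromosomes against 32533 to 39769 in control lists. When every list was cut to an equal length by peak p-value, 311 promoter regions were HADA-only and 98 control-only, and 183 of the 436 genes were among the former, beside 129 others. Over all merged regions, 7.15% were HADA-only and 1.86% control-only. The presence of peaks chose these regions, so their presence and height in HADA are given as a description and were not tested.

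The mice of the study were 8-week-old male C57BL/6j mice when purchased. The HADA mice lived for 28 days in a hypobaric chamber at a simulated altitude of 6000 m before their return to normoxia. The control mice stayed in normoxia, and the day of the blood draw for this assay is not given in the sources used here. Each library was made from about 50000 unsorted leukocytes of peripheral blood after red cell lysis, 3 libraries a group, with no statement that each came from a separate mouse. The study's results text calls the same cells mononuclear.

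ATAC-seq uses the Tn5 transposase, which inserts adapters where DNA is not covered by nucleosomes, so a pile of reads marks an open stretch. Active promoters are open around the transcription start. Most promoters of broadly used genes, and many of developmental and neuronal genes, lie in CpG islands, stretches rich in G, C and the dinucleotide CpG, while promoters of genes used by 1 blood lineage are often poor in CpG.

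The HADA-only promoters were of both kinds, and 6 are printed to show them, chosen after the values were seen. Each is the stretch of 121 bases centred on the tallest summit, read from GRCm39 on the strand of the gene, with every CpG in capitals. Grin1 (chr2:25208893-25209013, minus strand) and Gad1 (chr2:70392437-70392557, plus strand) stand for neuronal genes. Fcsk (chr8:111628916-111629036, minus strand) had the highest fold over local background. Tnfrsf13b (chr11:61017498-61017618, plus strand), Il33 (chr19:29925820-29925940, plus strand) and Pdcd1 (chr1:93980105-93980225, minus strand) stand for immune genes. The Grin1 stretch held 15 CpG, that of Gad1 12, Fcsk 5, Tnfrsf13b 2, Il33 2 and Pdcd1 1.
Grin1: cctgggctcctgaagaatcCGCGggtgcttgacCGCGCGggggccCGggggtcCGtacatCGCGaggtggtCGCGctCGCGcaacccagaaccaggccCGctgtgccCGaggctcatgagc
Gad1: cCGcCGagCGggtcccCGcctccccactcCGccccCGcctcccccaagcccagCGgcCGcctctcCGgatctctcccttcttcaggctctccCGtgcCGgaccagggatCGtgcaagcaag
Fcsk: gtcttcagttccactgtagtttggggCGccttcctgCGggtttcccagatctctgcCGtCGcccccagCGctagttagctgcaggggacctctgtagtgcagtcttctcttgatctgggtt
Tnfrsf13b: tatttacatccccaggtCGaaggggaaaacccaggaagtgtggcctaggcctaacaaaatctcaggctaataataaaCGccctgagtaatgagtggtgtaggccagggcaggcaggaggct
Il33: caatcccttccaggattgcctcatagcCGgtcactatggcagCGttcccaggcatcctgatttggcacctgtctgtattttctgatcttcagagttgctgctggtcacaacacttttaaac
Pdcd1: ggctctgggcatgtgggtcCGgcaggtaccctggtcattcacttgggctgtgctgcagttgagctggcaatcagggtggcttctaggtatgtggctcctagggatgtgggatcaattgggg

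Most HADA-only promoters were low peaks. The height of a peak is given as its summit pileup (the reads stacked at the summit) divided by the genome-wide background pileup of its library, both solved from the deposited fold and −log10 p-value. The background was 2.34, 1.99 and 2.27 in HADA 1 to 3 and 1.69, 2.05 and 1.83 in control 1 to 3, and a peak on plain background needed a pileup of 8 or 9 in a HADA list and 7 or 8 in a control list. The median pileup of the 438 regions was 22, 19 and 21 in HADA 1 to 3, and the median height was 9.40, 9.54 and 9.23 (9.39 ± 0.153, SD over 3 libraries). Promoter regions with a peak in all 6 lists had a median height of 79.0, 76.8 and 69.9 in the same HADA libraries and of 64.0, 43.8 and 49.7 in control 1 to 3. The mean height of single HADA-only regions ran from 4.97 to 97.1, and in 30 regions all 3 libraries reached 25 times the background. Within a region, the coefficient of variation over the 3 HADA libraries had a median of 14.5%.

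The tallest regions lay on a high local background. All of the 25 tallest regions with a summit sequence found once in the genome had a local background, the level the peak caller expects around the peak, of at least 5 times the library background, and all 25 had a control peak within 5 kb. Over all 438 regions, 60 (13.7%) had such a local background, and all 60 had a control peak within 5 kb. Of the 316 regions with a local background under 2 times the library background, 35 (11.1%) had a control peak that near. Regions with a high local background were narrow, with a median merged width of 562.5 bp against 773 bp at a low one, and their deposited fold over the local background was small, with a median of 2.92 against 5.41.

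**Figure D1:**
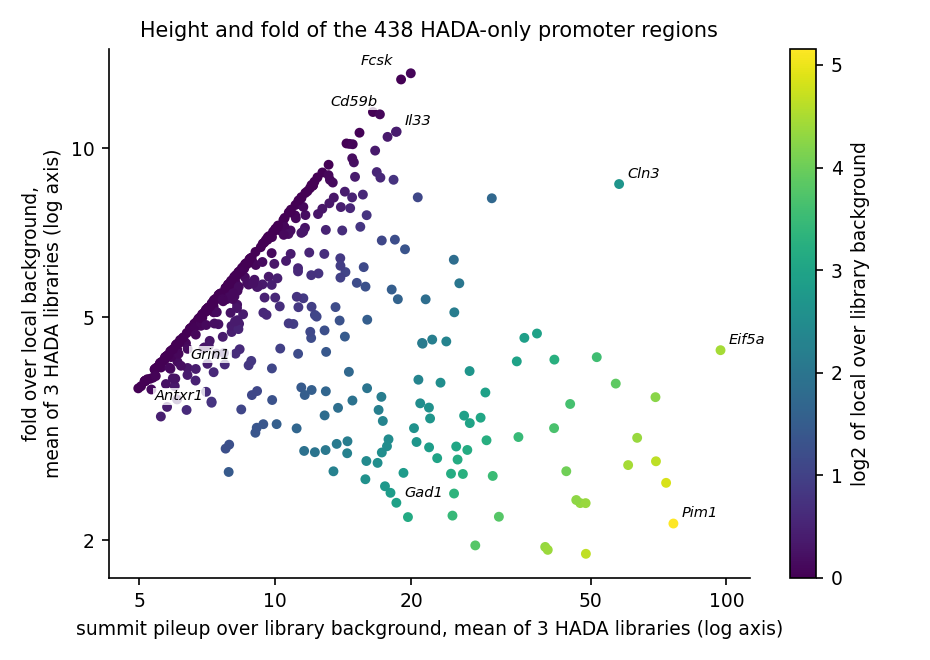
Mean summit pileup over library background (x, log axis) and mean deposited fold over local background (y, log axis) over the 3 HADA libraries for each of the 438 HADA-only promoter regions, with colour for the local over the library background (log2). Regions on plain background form the upper left edge, up to Fcsk, and the tallest regions, such as Eif5a and Pim1, have low folds and a high local background.

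Eif5a, which encodes a translation elongation factor, was the tallest, with pileups of 238, 205 and 197 in HADA 1 to 3 (chr11:69810543-69810881). The heights were 101.7, 102.9 and 86.6 times background, the closest control peak was 830 bp away, and the fold over the local background was 4.37 ± 0.27 (SD, n = 3). Dtymk, the thymidylate kinase of DNA precursor synthesis, had pileups of 185, 144 and 131 and a fold of 3.60. Cln3, a lysosomal membrane protein gene, had 138, 110 and 135 (chr7:126182308-126183119), and it alone of the 25 tallest had a fold above 5, at 8.63. Its summit lay 15 bp before a start, and a control peak lay 292 bp from the region. Fbxo11, Iqce, Trmt10a, Mllt6, Mvp, Trip10, Fam89b, Ppp1r10, Cenpt, Ppp1r18, Nup43, Tmem223, Unc119, the shared start region of Klhl17 and Noc2l, Zbtb2 and Chaf1a also ranked among the 25. Of these, Nup43 is a nuclear pore protein, Cenpt a kinetochore protein and Chaf1a a subunit of the chromatin assembly factor. Among the 25 tallest, 17 lay at a canonical start. In 10 of the 25, with Eif5a, Fbxo11, Trmt10a, Cln3 and Ppp1r10 among them, another start of the gene was open in all lists.

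On plain background, Fcsk, the fucose salvage kinase, had the highest fold, 13.6 on average, with pileups of 44, 46 and 41 (chr8:111628542-111629425). The closest control peak was 8498 bp away. Cd59b, a complement inhibitor at the cell surface, followed among regions with a unique summit in order of the lowest library, with 40, 39 and 33 and a mean fold of 11.5 (chr2:103900077-103900499). Others of this kind, chosen after the values were seen, were Cstpp1 (34, 29 and 32), Tnfrsf19 (33, 30 and 35), the organic cation transporter family gene Slc22a23 (38, 33 and 39) and the zinc finger gene Zfp286 (38, 35 and 28). In each of these 4 no control peak lay within 7 kb.

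The weakest regions were near the limit of the lists. Antxr1 had pileups of 15, 10 and 9, Or12j3 of 12, 13 and 9, Ascl5 of 13, 14 and 9, Rpl9-ps6 of 10, 10 and 14, and the weaker Dlgap3 region of 10, 13 and 12. The spread between libraries was widest at AI429214 (16, 27 and 12), Gm11007 (13, 28 and 21) and Apol9a (15, 25 and 14), where HADA 2 was the highest.

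To describe functions, genes were put by hand into classes after the names were known: 69 regions at genes of neurons and synapses, 46 at immune genes and 43 at developmental regulators, with 280 in no class. Only members were classed, so these counts have no share over all promoters to be read against. The order of the classes depended on the measure of strength. By height immune regions led, and by the fold over local background they were lowest, with a mean of the library medians of 3.73 ± 0.23 against 4.91 ± 0.17 at neuronal and 4.54 ± 0.26 at developmental regions (SD, n = 3). Their local background had a median of 2.79 times the library background, against 1.04 at neuronal regions. The median height of immune regions was 13.9, 13.1 and 13.9 in HADA 1 to 3, while that of neuronal regions was 8.12, 8.03 and 7.92 and that of developmental regions was 8.55, 9.04 and 8.36. A local background under 2 times the library background was found at 17 of 46 immune, 59 of 69 neuronal and 30 of 43 developmental regions. A summit was called CpG-rich where the 201 bases around it had at least 50% GC and at least 0.6 times the CpG expected from C and G. That held for 8 immune (17.4%), 41 neuronal (59.4%) and 31 developmental regions (72.1%). Another start of the gene had a peak in all 6 lists at 24 immune (52.2%), 7 neuronal (10.1%) and 5 developmental regions (11.6%).

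**Figure D2:**
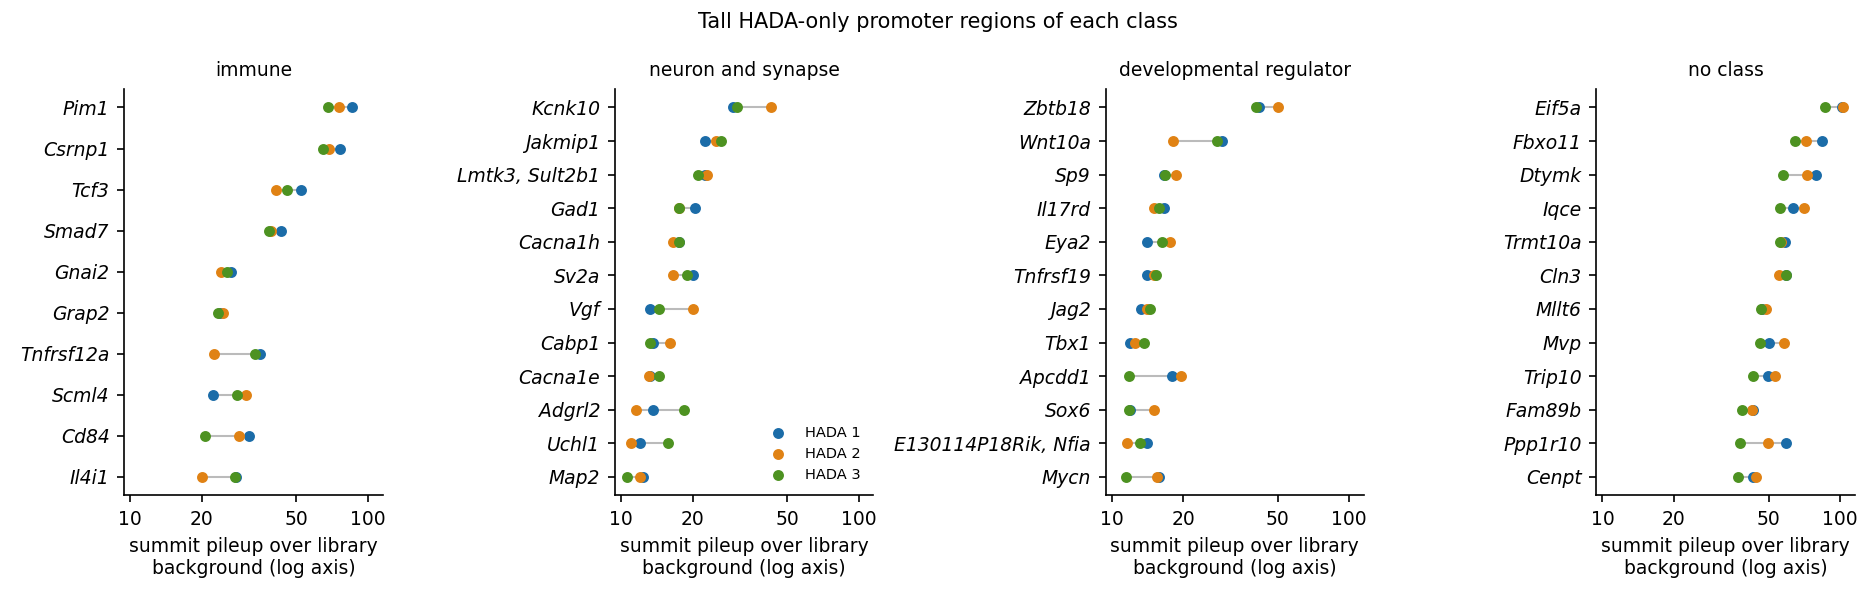
Summit pileup over library background (x, log axis) in HADA 1, 2 and 3 (points, joined by a grey line) for tall regions with a unique summit in each class and in none (y). The immune panel runs from Pim1 down to Il4i1, and Kcnk10 of the neuronal and Zbtb18 of the developmental regions are the tallest of their panels in every library.

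Tnfrsf13b, the receptor TACI for the B cell survival factors BAFF and APRIL, had 37, 40 and 42 (chr11:61017280-61017994). Tcf3, which encodes the E2A proteins of lymphocyte development, had 123, 82 and 104, with the summit in an intron, away from its canonical start. The T cell adaptor gene Grap2 had 56, 49 and 53. The pileups of these 3 genes were all above the median of the 438 regions in each library.

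Lower peaks marked other lymphocyte genes. Skap1, a T cell adaptor for integrin activation, had 24, 27 and 28. Pdcd1, the inhibitory receptor PD-1, had 12, 14 and 14 (chr1:93979891-93980533), close to the limit of the lists, and like Fyn and Il7 it was HADA-only under neither q limit nor with equal list lengths. Ets1, a transcription factor of lymphocytes, had 21, 14 and 19, the kinase gene Fyn 11, 16 and 12, and Pik3cd, the leukocyte PI3-kinase subunit, 17, 20 and 18. At Grap2, Ets1, Fyn and Pik3cd, as at Tcf3, another start of the gene had a peak in all 6 lists. Tcf4, an E protein of plasmacytoid dendritic cells and B cells, had 29, 18 and 25 at an alternative start, and again another start was open in all lists.

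Cytokines and related secreted enzymes were also among the immune members. Il33, the alarmin of the IL-1 family, had pileups of 42, 28 and 54 (chr19:29925519-29926185) at a start that is not the canonical one, 81288 bp from the closest control peak. Il12b, which encodes the shared subunit of IL-12 and IL-23, had 29, 16 and 16, and Il7, the lymphocyte survival cytokine, 14, 11 and 14. Il4i1, a secreted amino acid oxidase, had 65, 40 and 63. Mmp9, a neutrophil gelatinase, had 45, 54 and 45, with the summit in an intron. Pim1, a cytokine-induced kinase, was the tallest immune region at 200, 151 and 154, with a fold of 2.14, and Csrnp1 followed with 178, 137 and 147. At both genes another start had a peak in all 6 lists.

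The median height of neuronal regions was below that of all 438 in each HADA library. The distance from a neuronal region to the closest control peak had a median of 19048 bp, against 10130 bp over all 438 and 3212 bp at immune regions. Sv2a, a synaptic vesicle protein gene, had pileups of 47, 33 and 43 (chr3:96088056-96088736) and a fold of 10.7. Rbfox1, a neuronal splicing factor, had 31, 21 and 28, and Map2, a dendritic microtubule protein, 29, 24 and 24. Nrxn2, a presynaptic adhesion molecule, had 18, 12 and 14, and Grin1, the obligatory NMDA receptor subunit, 16, 10 and 15 (chr2:25208807-25209288). Gad1, the enzyme of GABA synthesis, was taller, at 48, 35 and 40 (chr2:70392432-70393135), with a local background of 7.76 times the library background and a control peak 2373 bp away. Grin1 and Nrxn2 lay below the median height of the class, and Gad1 was the tallest region of the neuron list.

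Ion channel subunits were among the members. The pore subunits of voltage-gated calcium channels Cacna1h (41, 33 and 40), Cacna1e (31, 26 and 33), Cacna1b (20, 19 and 18) and Cacna1a (13, 16 and 11) and the auxiliary subunit Cacnb1 (69, 41 and 68) were present. The potassium channel gene Kcnk10 had 69, 85 and 70, the tallest of the neuronal class. Kcnj1, a renal potassium channel gene, had 56, 52 and 64, and neither it nor Cacnb1 was put in the class. The order from Cacna1h to Cacna1a was the same in all 3 HADA libraries.

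Developmental regulators included transcription factors and secreted signals. Zbtb18, a repressor of brain development, had pileups of 98, 100 and 92. Tbx1, a T-box factor of the pharyngeal arches, had 28, 25 and 31, Sox6 28, 30 and 27, Hoxa7 30, 33 and 25 and Mycn, a MYC family factor, 37, 31 and 26. Pax6, the regulator of eye development, was low at 16, 11 and 12, at a start that is not canonical and 228492 bp from a control peak. Of the signals, Wnt10a had 68, 36 and 63, Wnt6 20, 15 and 19, Tgfb2 11, 11 and 13 and Wnt16 10, 14 and 16. Jag2, a Notch ligand, had 31, 28 and 33. HADA 2 was the lowest library at Wnt10a, and the other 2 libraries were alike.

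Of the genes with a promoter region in any list, 436 of 12483 (3.49%) had a HADA-only and 65 (0.521%) a control-only one. Among genes of the lists, 5 of the 11 neuron genes with a promoter region did (Gad1, Grin1, Map2, Nrxn2 and Rbfox1), and 4 of the 11 had a region open in all lists. Map2 and Rbfox1 stayed HADA-only with −log10 q limits of 5 and 10 and with equal list lengths, while Gad1, Grin1 and Nrxn2 did so under none of these. The share was 19.2% of potassium, calcium and sodium channel subunits (10 of 52), 16.7% of Wnt, Bmp, Fgf, Gdf and Tgfb growth factors (4 of 24), 13.4% of developmental transcription factors (9 of 67) and 9.52% of chemokines, interleukins and their receptors (6 of 63). Of these, Cacna1a, Cacnb1, Scn3a, Wnt16, Tgfb2, Hoxa7, Pax6, Foxd1, Lhx4, Il4i1, Il7 and Il1r2 were HADA-only under neither q limit nor with equal list lengths. The share was 4.13% of solute carriers (9 of 218) and 2.99% of zinc finger genes (12 of 401). Of the blood lists, 1 of 18 T cell genes (Skap1), 1 of 13 neutrophil genes (Mmp9), 1 of 6 dendritic cell genes (Tcf4), and no monocyte, NK cell, regulatory T cell, erythroid and platelet, or eosinophil and basophil gene was a member. No member came from the 24 cell cycle, 11 housekeeping, 16 NRF2 target, 86 respiratory chain or 78 mitochondrial ribosome genes with a region, of which 23, 11, 16, 85 and 76 had one open in all 6 lists. Adm, the vasodilator peptide adrenomedullin, was the 1 member of 20 HIF target genes, with pileups of 42, 34 and 42, and Cdh1, the epithelial E-cadherin, the 1 of 6 epithelial genes, with 19, 17 and 12. These shares describe counts, with 3.49% as the level over all genes, and no list was tested. A region open in all lists was found at 10600 of the 12483 genes. It was found at 20 of 52 channel, 7 of 24 growth factor, 35 of 67 developmental and 38 of 63 chemokine and interleukin genes. The part of this difference in the shares was not tested.

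**Figure D3:**
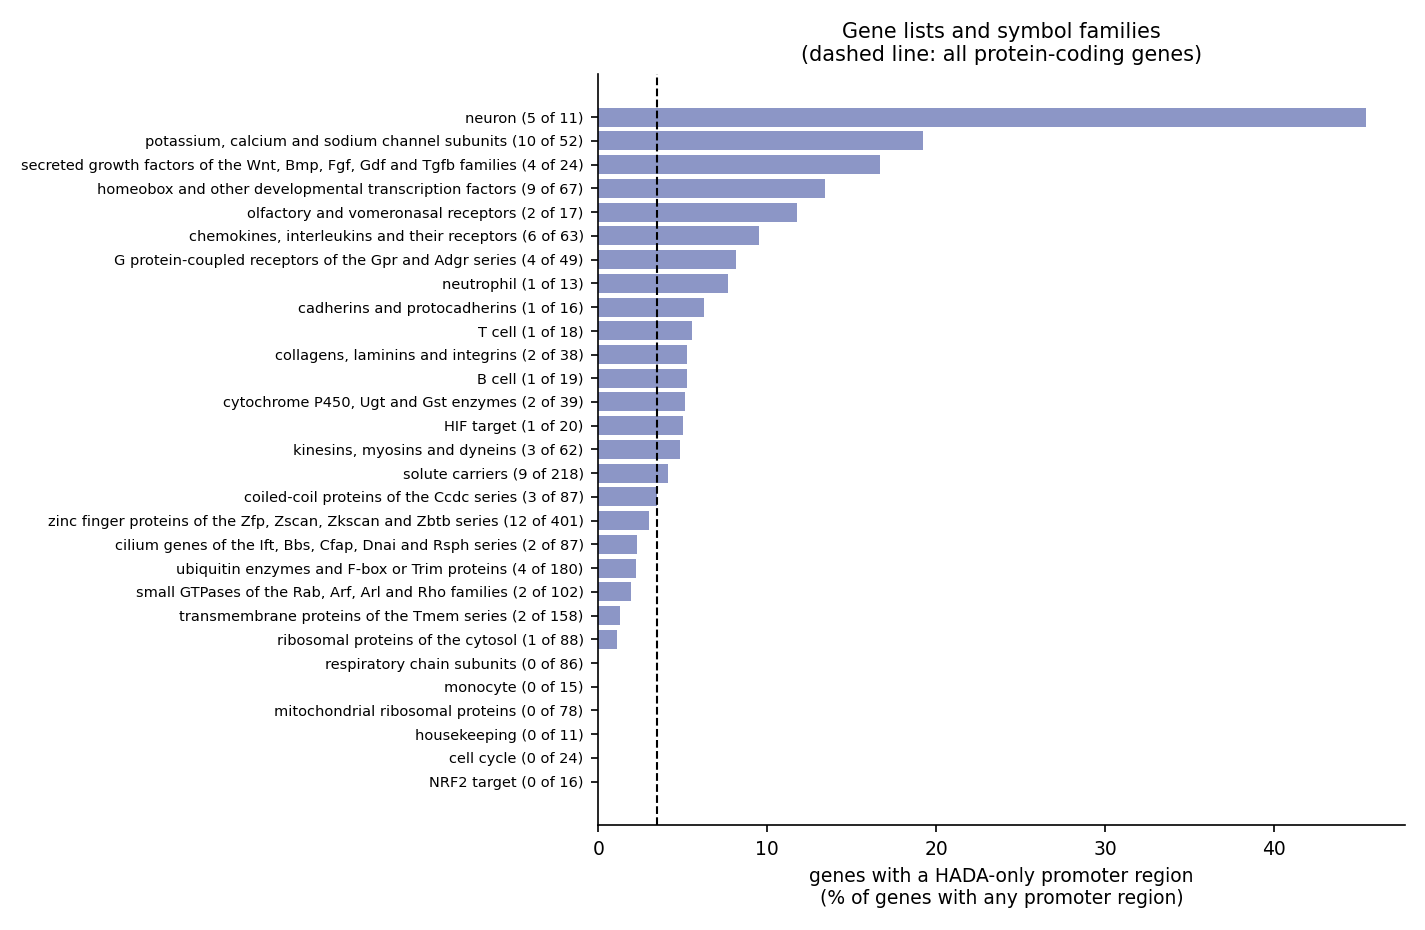
Share of genes with a HADA-only promoter region among the genes with any promoter region (x, percent) for gene lists and symbol families with at least 10 such genes (y, counts in brackets). The dashed line marks all protein-coding genes at 3.49%, the neuron list stands at 45.5% on 11 genes, and 6 lists stand at 0.

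Taken over all heights, the base composition of HADA-only promoters lay between those of the promoters open in all lists and of the control-only promoters. The median GC content within 100 bp of the summit was 60.7% (quartiles 53.2 and 69.7%), against 65.7% at the 10109 promoter regions open in all 6 lists and 51.2% at the 65 control-only ones. The median observed over expected CpG was 0.576, 0.825 and 0.287 in the same order. Of the 438 regions, 201 were CpG-rich (45.9%, exact 95% interval 41.2 to 50.7%), against 75.9% and 15.4%. Regions with a peak in 3 HADA lists and 1 or 2 control lists had median GC contents of 60.2% and 60.7%, close to that of the HADA-only regions. At 1200 other promoter regions whose tallest peak lay between the quartiles of the members' heights, the median GC content was 57.7% and 38.0% were CpG-rich. With a tallest peak under 10 times background, the median GC content was 60.7% at HADA-only promoters and 48.8% at 33 promoters open in all lists. It was 61.2% and 60.7% at 10 to 15, 60.95% and 62.7% at 15 to 25, and 60.2% and 63.7% at 25 to 50. The 13 HADA-only promoters at 50 to 100 had 55.7%, against 66.2%.

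**Figure D4:**
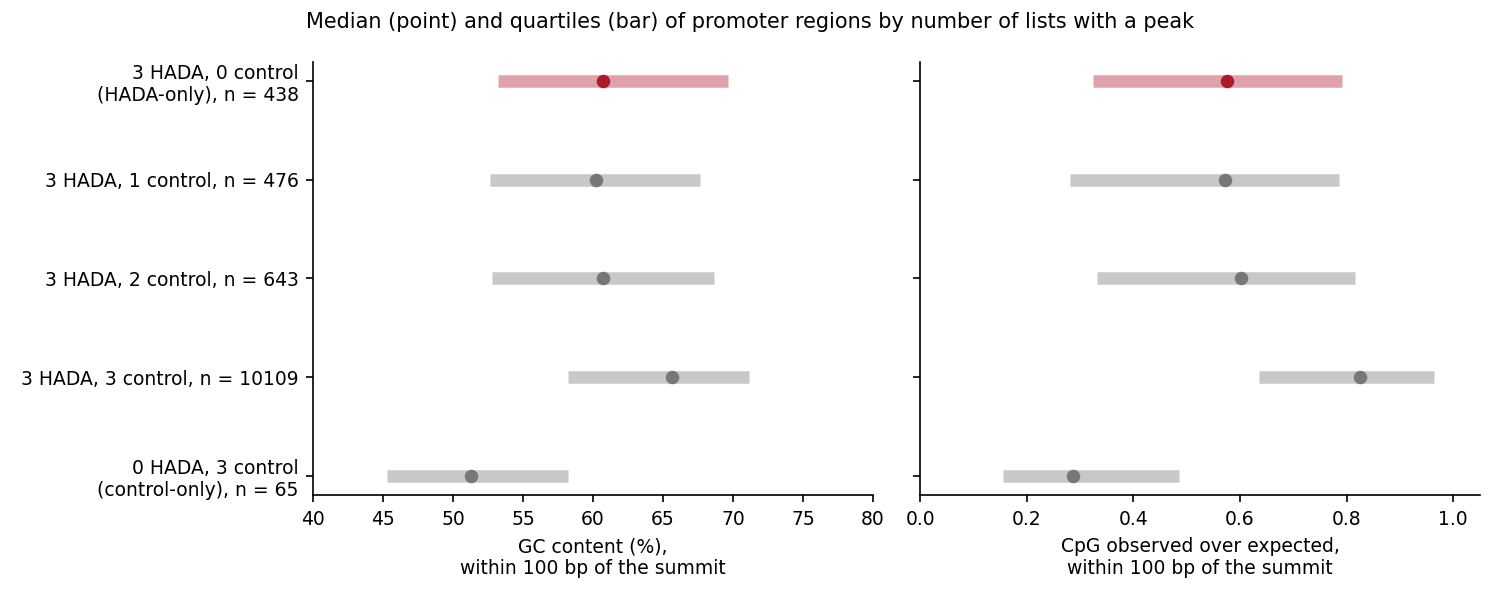
GC content (left, percent) and observed over expected CpG (right) within 100 bp of the tallest summit for promoter regions grouped by the number of HADA and control lists with a peak (y), as median (point) and quartiles (bar). HADA-only regions, at 60.7% and 0.576, sit beside those with 1 or 2 control peaks, below the regions in all lists and above the control-only regions.

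The libraries themselves differed in how height followed GC content. At promoters open in all lists, the median log2 height at summits of at least 70% GC exceeded that at summits under 50% by 0.76, 0.79 and 0.78 in HADA 1 to 3 and by 0.58, 0.51 and 0.36 in control 1 to 3. The groups did not overlap, and the part of this in the GC content of HADA-only promoters was not tested.

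The share of regions at the main start of the gene was 83.6% for CpG-rich and 56.1% for CpG-poor members. A summit lay within 1 kb of the start of the transcript marked Ensembl canonical in 301 of 438 regions (68.7%), namely in 168 of 201 CpG-rich and 133 of 237 CpG-poor regions, a difference that was not tested. In 119 regions (27.2%, exact 95% interval 23.1 to 31.6%) the gene had another protein-coding start with a peak in all 6 lists, in 30 CpG-rich (14.9%) and 89 CpG-poor ones (37.6%). A further 171 had no other start beyond 1 kb. The summit lay in a UTR in 167 regions, in an intron in 146, in a coding exon in 53 and outside protein-coding transcripts in 72. The 116 regions at these open other starts had a median height of 62.8, 56.7 and 55.2 times background in HADA 1 to 3 and 46.8, 30.2 and 32.8 in control 1 to 3. In every library that was below the median of the promoters open in all lists.

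The median distance of the tallest summit from the closest start was 170.5 bp at HADA-only promoters, against 108 bp at promoters open in all lists, and 137 of 438 (31.3%) lay within 100 bp, against 46.7%. The bin from the start to 100 bp after it was the fullest in both sets, with 18.3% and 29.3% of summits.

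**Figure D5:**
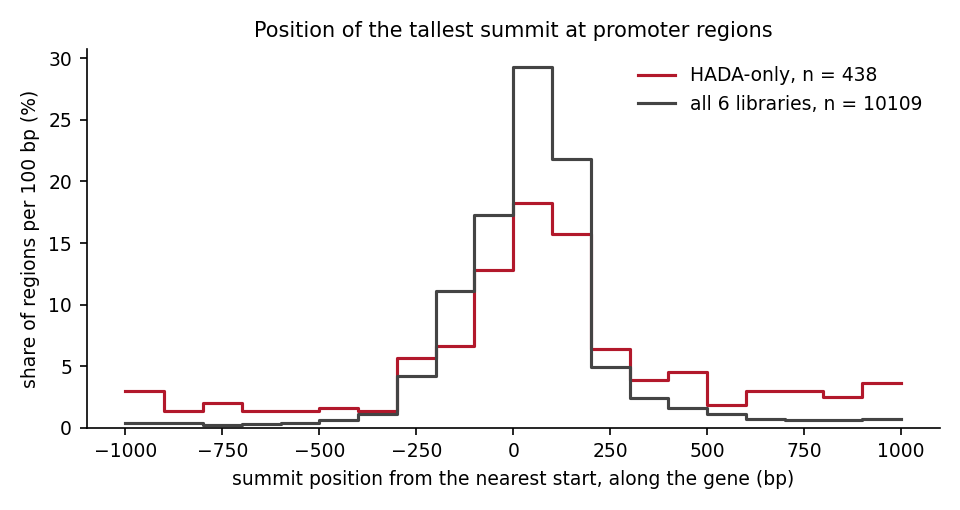
Share of regions (y, percent per bin of 100 bp) by the position of the tallest summit from the closest protein-coding start (x, bp, positive along the gene) for the 438 HADA-only promoter regions (red) and the 10109 open in all 6 lists (grey). Both peak just after the start, at 18.3% and 29.3%, and the red line stays higher beyond 300 bp on each side.

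Motif letters were counted around each summit. A GC box (GGGCGG on either strand, the site of SP and KLF factors) was found within 100 bp of the summit in 159 of 438 regions (36.3%), against 49.7% of promoters open in all lists, 15.4% of control-only ones and 45.1% of all 13070 promoter regions. It was in 60.7% of CpG-rich and 15.6% of CpG-poor members. The ETS letters CCGGAA were in 8.22% of members, 10.8% of control-only and 17.6% of all promoter regions, and the NRF1 motif in 1.37% and 4.54%. The RUNX letters TGTGGT were in 10.0% of members, 20% of control-only and 9.08% of all regions, the NRF2 letters TGACNNNGC in 9.82% and 10.1% (2 of 65 control-only regions), and the HIF letters TACGTG in 3.20% and 2.53% (3 of 65 control-only regions). The GC box can overlap the EGR letters GCGTGGGCG, found in 0.913% of members and 0.719% of all. These are counts of letters and say nothing of binding.

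In bulk libraries, fewer cells of a type and less accessibility per cell cannot be told apart. All 8 genes of the pan-leukocyte list had a peak in every library. Peaks at the 20 B cell genes (summit within 3 kb of the gene) numbered 18.4 to 20.3 per 10000 peaks in HADA and 9.22 to 16.1 in control libraries, and all 20 genes had a peak in each HADA library against 15 to 20 in control libraries. The values were 15.4 to 16.5 and 11.7 to 14.6 for 20 T cell genes, and 4.20 to 4.71 and 2.15 to 3.02 for 12 NK cell genes. They were 7.06 to 8.39 and 9.05 to 10.1 for 16 monocyte genes, and 3.86 to 6.29 and 5.87 to 9.84 for 17 neutrophil genes, of which Ly6g, Mpo and Ltf had no peak in any HADA library and Camp and Ngp had none in any library. Before division by list length, monocyte peaks numbered 30 to 36 in HADA and 33 to 38 in control libraries. Per 10000, the 8 pan-leukocyte genes had 6.12 to 7.46 and 7.66 to 8.91. The 24 cell cycle genes had 7.71 to 7.92 and 8.05 to 9.22, and the 11 housekeeping genes 4.08 to 4.89 and 4.34 to 5.53. The 22 neuron genes had 10.5 to 11.5 and 6.76 to 9.30 per 10000. The number of them with a peak overlapped, at 14 to 16 in HADA and 11 to 16 in control libraries. Of the 22 neuron genes, Snap25, Grin2b, Rbfox3, Nefl and Nefm had no peak in any library. The part of these differences in the immune and neuronal members was not tested.

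Whether a peak of the HADA height would have been listed in control libraries was computed in 2 ways. With mean HADA height and local background scaled to each control library background, all 438 regions would have passed the limit of each control list. The rule nearly fixes this, since members passed a similar limit in every HADA list. When heights were scaled by the regions shared by all libraries, whose median height in control 1 to 3 was lower by 0.11, 0.60 and 0.34 on the log2 scale, and the control local background was read from the closest shared region, 145 regions (33.1%, exact 95% interval 28.7 to 37.7%) would have passed all 3 limits with a Poisson probability of at least 95%. That scaling was chosen after the data were seen. By this measure 39.1% of immune, 18.8% of neuronal and 20.9% of developmental regions would have passed.

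The rule uses the summit closest to a start among the peaks of a region, which need not be its tallest. By that summit, the regions just inside the distance limit were at Epb41l4b, Scap and Mavs, at 980, 990 and 995 bp from a start, and those just outside at Vav2 and Dnmt3a, both at 1008 bp, and Mink1 at 1012 bp. The regions closest to the rule among those with 1 control peak were at Sptbn5, with a control peak of 3.89 times background, and at Esm1 and Klhl33, both with 4.15. The tallest with 2 HADA peaks and no control peak was at Tspoap1, at 81.8 and 84.0 times background, which is within the range of the members. The number of promoter regions with 3 HADA peaks was 438 with 0, 476 with 1 and 643 with 2 control peaks.

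At 11 regions the 50 bases at the summit occur more than once in the genome, and how uniquely their reads were placed was not examined. They were at Zfp1009, Zfp968, Gm4631, Gm11007, Gm14434 and Gm14308 on chromosome 2, and at Sp110, Ly6a, Calm4, Nid1 and Lipo3.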

How the data were processed

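ATAC-seq was done on 6 libraries, 3 a group, grouped by their labels. The authors trimmed reads (Trimmomatic), aligned them to GRCm39 (Bowtie2), removed duplicates (Picard) and called peaks for each library (MACS2). Versions, MACS2 options and any Tn5 shift are not given in the sources used here. Each deposited list holds, per peak, the fold over local background at the summit, p-values and q-values as −log10, and a score, which was not used.

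Summit pileup and background were solved from the deposited fold and −log10 p, and 100% of peaks returned the p-value within 0.01%. The library background was the 1st percentile of the solved local backgrounds. No peak ended beyond a GRCm39 chromosome. Starts came from GENCODE M39 protein-coding transcripts. Python 3.11.15, pandas 2.3.3 and pysam 0.24.0 were used, and the functions were tested on simulated data. No group test was run, and p-values were computed for no region. Intervals cover counting error only.

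Genes named by rule were the 25 tallest and 5 lowest regions with a unique summit, members of the lists, up to 4 a family, those at the limits and the 3 widest in spread. Other named genes, such as Tnfrsf13b, Grap2 and Pdcd1, met none of these rules and were chosen after the values were seen. The members and lists were chosen with earlier results of these data known. Promoter distance, start set, q limit, equal list length, merging, depth, window and left-out libraries were varied. Some members are not reported here.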

Additional observations from a re-analysis of the deposited data

Results flagged for a closer look

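Chromosome X lies outside the rule, which covers chromosomes 1 to 19. Of its 406 promoter regions, 22 had a peak in all 3 HADA lists and no control list, a pattern found at 3.35% of promoter regions on chromosomes 1 to 19, and 0 had the opposite pattern. Chromosome Y had 4 promoter regions, with 0 of either pattern. These counts were not tested.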

How the results depend on the processing

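Of 157 values under alternatives, 114 stayed within a limit and 43 moved. The limit was 1 SD between HADA libraries (0.153) around 9.46, the median of the regions' mean heights, for height, the exact 95% interval for shares, a 95% interval of the median over regions for GC and CpG, and 1.5 times for counts. No paired analysis was possible because the results come from no test. With a distance of 500 bp, the median GC content was 62.7%, the CpG ratio 0.633, the share with another start open in all lists 22.8%, that with a control peak within 1 kb 7.58% and that with a GC box 42.1%. With 3 kb there were 683 regions, 691 genes and 152 control-only regions, with a height of 10.1, 56.7% GC, a CpG ratio of 0.429, another open start in 38.5% and a GC box in 27.5%. With canonical starts alone there were 35 control-only regions and 6 list genes (11 in the report), with a height of 8.98, 63.2% GC, a CpG ratio of 0.650, another open start in 0.331% and a GC box in 43.4%. With −log10 q of at least 5 the height was 11.6, and 91.3% were tall enough for the control limits. At 10 these were 16.7 and 87.4%, the CpG ratio 0.623, another open start 21.3%, a control peak within 1 kb 7.57% and list genes 18. With the same number of strongest peaks per library there were 98 control-only regions, a height of 12.9 and 6 list genes. Depth scaling gave a height of 9.28, and a window of 250 bp gave 59.2% GC and a GC box in 56.6%. Of the 436 genes, 270 were kept at a −log10 q of 5 (482 regions), 131 at 10 (581 regions, with 456 other genes), 183 with equal list lengths (311 regions), 424 with depth scaling, and 125 under all 4. Chosen after the data were seen, the strict scaling left 33.1% tall enough, and regions with a low local background had a height of 8.12. Without 1 library at a time, the counts ran from 469 to 810 regions, 467 to 794 genes, 76 to 105 control-only regions and 12 to 19 list genes. Control 1 decided the upper end, with 810 regions, 794 genes and 19 list genes without it, and HADA 1 that of the control-only regions, 105. In the same order of omission the height ran from 8.67 to 10.7, GC from 59.7 to 60.7%, the CpG ratio from 0.553 to 0.581, another open start from 24.8 to 29.9%, tall enough from 99.4 to 100%, a GC box from 33.1 to 36% and a control peak within 1 kb from 8.64 to 11.2%. The causes were not tested.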
